A study of Mus musculus with 9 samples.

Results

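The clustered histone genes are the replication-dependent genes for the linker histone H1 and the core histones H2A, H2B, H3 and H4, which lie close together on a few chromosomes. Members were chosen by name: every probe set whose only gene symbol was of the H1f1 to H1f6, H2ac, H2bc, H3c or H4c form, with 1 row per gene. This gave 27 of the 19938 genes tested: 5 of H1, 4 of H2A, 9 of H2B, 3 of H3 and 6 of H4. Of these, 23 lie on chromosome 13 and 4 on chromosome 3. A further 17 probe sets listed several symbols that were all of this form, and they were counted as 1 unit each. All but 1, which listed H2bc6 with H1f4, listed genes of 1 type, whose near-identical coding sequences probes may not tell apart. The annotation held 63 histone symbols in all, 36 of which had no probe set of their own. Of these 36, 17 were listed in the 17 shared probe sets and 19 only in probe sets that also listed a symbol outside the name form.

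The study asked about gene regulation by the heat shock factor HSF1 and the replication protein RPA1, the large subunit of the single-strand DNA binding protein RPA. Immortalized fibroblasts from ICR mouse embryos (MEFs) were infected for 2 h with adenovirus (1e8 pfu per ml) that expressed a short hairpin RNA (shRNA), and were then kept for 70 h in medium with 10% serum at 37 degrees. The groups were HSF1 shRNA, RPA1 shRNA and a control shRNA whose titles call it scrambled, with 3 arrays each, so every group carried virus and a hairpin and none was uninfected. The labels name 1 shRNA per target and do not say whether the 3 arrays came from separate cultures, so the p-values measure only the spread between these samples.

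Replication-dependent histone mRNAs are made mostly in S phase, when new DNA has to be packaged. Their 3′ end is a stem-loop rather than a poly(A) tail; it is bound by the stem-loop binding protein (Slbp) and cut by a complex that holds the U7 proteins Lsm10 and Lsm11 and the nuclease Cpsf3. NPAT, made by the gene Npat, activates their transcription at the clusters, and in mammalian cells the mRNAs decay quickly when DNA synthesis stops. In human cells a few members, among them those that correspond to H1f2, H2bc4 and H2bc21, also give polyadenylated transcripts outside S phase. H1f6, H2ac1 and H2bc1 are the testis forms of H1, H2A and H2B in the mouse.

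RefSeq promoter windows (GRCm38.p6, 250 bases before and 50 after the start of the gene) were found for 23 of the 27 members. None was found for H2bc4, H2bc21, H3c7 and H4c14. The 250 bases upstream of the start are shown for 6 members that fell under at least RPA1 shRNA and that cover all 5 histone types: H1f1 (chr13:23763418-23763667, plus strand), H1f5 (chr13:21780626-21780875, minus strand), H2ac8 (chr13:23571221-23571470, minus strand), H2bc3 (chr13:23746484-23746733, plus strand), H3c15 (chr3:96239128-96239377, minus strand) and H4c4 (chr13:23581318-23581567, plus strand). Capitals mark, on either strand, the octamer ATTTGCAT, the CCAAT box, the TATA box TATAAA and the palindromic core of a heat shock element, GAANNTTC.
H1f1: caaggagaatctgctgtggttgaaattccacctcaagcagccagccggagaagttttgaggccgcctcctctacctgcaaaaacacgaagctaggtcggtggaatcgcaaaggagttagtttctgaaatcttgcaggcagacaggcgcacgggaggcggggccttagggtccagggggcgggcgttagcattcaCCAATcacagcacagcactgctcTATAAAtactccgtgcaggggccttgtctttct
H1f5: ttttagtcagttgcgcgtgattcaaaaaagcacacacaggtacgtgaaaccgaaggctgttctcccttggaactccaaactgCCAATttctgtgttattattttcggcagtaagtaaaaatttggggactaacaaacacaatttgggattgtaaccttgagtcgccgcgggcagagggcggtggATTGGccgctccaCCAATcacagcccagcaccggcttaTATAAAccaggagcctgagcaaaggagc
H2ac8: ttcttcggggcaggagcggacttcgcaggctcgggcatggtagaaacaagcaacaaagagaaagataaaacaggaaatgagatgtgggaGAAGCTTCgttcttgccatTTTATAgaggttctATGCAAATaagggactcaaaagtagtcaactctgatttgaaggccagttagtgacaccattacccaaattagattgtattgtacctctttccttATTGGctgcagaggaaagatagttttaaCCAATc
H2bc3: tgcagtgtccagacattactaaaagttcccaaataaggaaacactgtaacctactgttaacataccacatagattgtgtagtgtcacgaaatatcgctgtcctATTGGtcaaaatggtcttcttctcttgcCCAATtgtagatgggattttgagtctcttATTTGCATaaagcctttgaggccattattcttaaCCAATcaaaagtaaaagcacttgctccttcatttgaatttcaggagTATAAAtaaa
H3c15: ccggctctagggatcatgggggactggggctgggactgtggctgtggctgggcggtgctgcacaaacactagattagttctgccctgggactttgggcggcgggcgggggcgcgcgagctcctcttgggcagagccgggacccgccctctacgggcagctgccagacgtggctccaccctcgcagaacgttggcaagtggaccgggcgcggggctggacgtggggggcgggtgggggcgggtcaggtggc
H4c4: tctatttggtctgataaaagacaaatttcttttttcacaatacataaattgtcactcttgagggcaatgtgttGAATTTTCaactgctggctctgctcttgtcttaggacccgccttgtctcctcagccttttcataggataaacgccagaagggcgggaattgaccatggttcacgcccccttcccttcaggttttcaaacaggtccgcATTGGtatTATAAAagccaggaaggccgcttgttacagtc
The octamer, which is bound by OCT1 in H2B promoters, was found in 8 of the 23 whole windows, against 1.74% of all 32851 windows in the table. It was in 3 of 4 H2A and 5 of 7 H2B windows and in none of the 5 H1, 2 H3 and 5 H4 windows. CCAAT was in 20 of 23 windows, against 37.41% of all windows, and in 2 of 5 H4 windows. TATAAA was in 15 of 23, against 13.62% of all. GAANNTTC was in 3 of 23 windows, against 7.86% of all, namely those of H4c4, H2ac8 and H2bc8. The last pair are divergent neighbours whose windows share 279 bases, so 1 stretch of DNA was counted for both. H2ac1 and H2bc1 likewise share 220 bases. The windows of both pairs also held the octamer, CCAAT and TATAAA, so those counts too include overlapping windows. Of the stretches printed above, those of H1f1, H1f5, H2bc3 and H4c4 hold a TATA box close to the start of the gene. A match of letters is a description and not a binding site.

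Values are deposited log2 signals, and differences between groups are on the same log2 scale. A gene was called where limma gave a Benjamini-Hochberg adjusted p under 0.05 over all 19938 genes (two-sided, 3 arrays per group). With 3 arrays per group the smallest exact permutation p is 0.1, so the calls rest on limma's variance model, and the number of arrays limits the precision. Rpa1, the target of one hairpin, had a level of 9.39 ± 0.04 on RPA1 shRNA arrays, 11.33 ± 0.02 on HSF1 shRNA arrays and 11.41 ± 0.01 on control arrays (SD, n = 3 each); the Hsf1 transcript was not analysed here. The mean level over 9 fibroblast markers was 11.5 to 11.6 on HSF1 shRNA arrays and 10.98 to 11.27 on RPA1 shRNA arrays. On control arrays it was 11.61 to 11.64. Not all of them were bright: Thy1 had means of 8.13, 8.05 and 7.95 on HSF1 shRNA, RPA1 shRNA and control arrays. Of these 9 markers, 1 rose and 4 fell under HSF1 shRNA (55.6% in either direction, against 16.1% of all genes). Under RPA1 shRNA 6 fell and 0 rose (66.7%, against 30.1% of all genes). Their median difference was -0.20 under HSF1 shRNA and -0.56 under RPA1 shRNA. Pdgfra fell most, with -0.90 and -1.70 in that order, and S100a4 rose by 1.16 under HSF1 shRNA. Both comparisons with control use the same 3 control arrays, so they are not independent of each other.

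Under HSF1 shRNA the histone genes were mostly lower than in control cells, by modest amounts, with 1 exception. Of the 27 members, 11 fell, 1 rose and 15 did not pass, against a background of 6.21% of all genes lower and 9.89% higher. In either direction 44.4% of the members passed, against 16.1% of all genes. The median difference of the members was -0.21, against 0.04 over all genes tested, and 23 of the 27 differences were below 0. All 3 HSF1 shRNA arrays lay below all 3 control arrays for 15 members (13.9% of all genes) and above them for 3 (23.9% of all genes). Those 3 were H1f2, H2bc4 and H2bc21. The count of fallen genes was 7 without control replicate 1 or 2 and 6 without HSF1 shRNA replicate 2 or 3.

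Under RPA1 shRNA the fall was wider and deeper. Of the 27 members, 17 fell, 1 rose and 9 did not pass, against 14.7% of all genes lower and 15.4% higher. In either direction 66.7% of the members passed, against 30.1% of all genes. The median difference was -0.48, against 0.02 over all genes, and 23 of 27 differences were below 0. The 3 RPA1 shRNA arrays lay below the 3 control arrays for 17 members (19.2% of all genes) and above them for 1 (21.9% of all genes). Set directly against HSF1 shRNA, RPA1 shRNA gave 11 members lower, 1 higher and 15 that did not pass, against 14.7% of all genes lower and 9.71% higher. In either direction this was 44.4% of the members, against 24.4% of all genes. The median of that difference was -0.25, against -0.02 over all genes. In this contrast the groups did not overlap for 15 members in the lower direction (20.5% of all genes) and 1 in the higher direction (14.1%). The direct count of lower members was 7 without HSF1 shRNA replicate 1 and 6 without RPA1 shRNA replicate 1. In bulk samples, fewer cells in S phase and less histone mRNA per cell cannot be told apart.

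**Figure D1:**
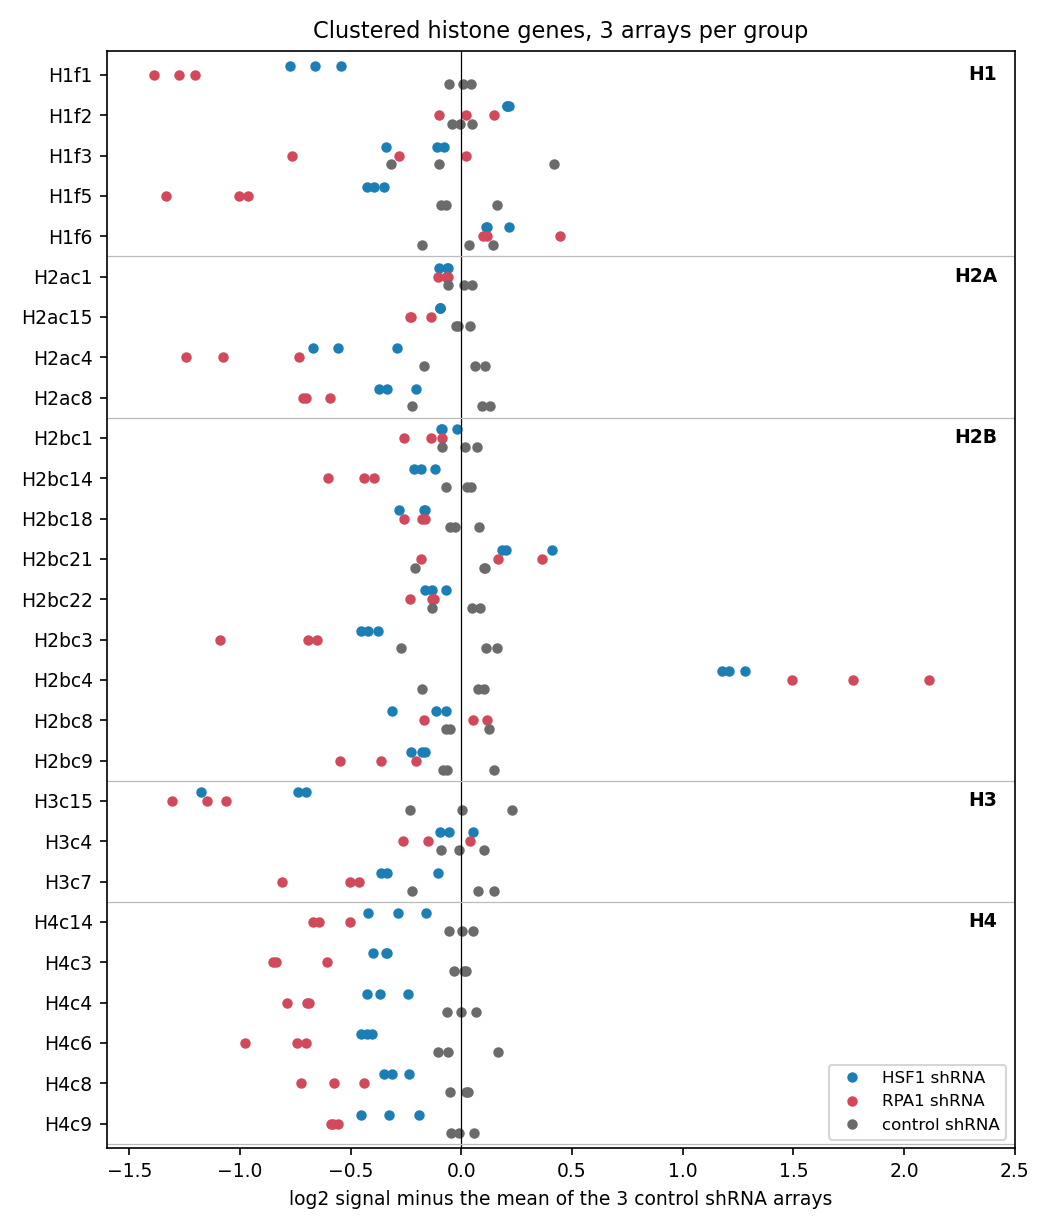
Log2 signal minus the mean of the 3 control arrays (x axis) for each of the 27 histone genes (rows, grouped by type), with 1 point per array in blue for HSF1 shRNA, red for RPA1 shRNA and grey for control. All blue and red H4 points lie left of 0 and all blue and red H2bc4 points lie right of it.

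The shift was seen on each array and not on 1 array alone. The median member stood at -0.17, -0.18 and -0.32 relative to its control mean on the 3 HSF1 shRNA arrays. It stood at -0.44, -0.55 and -0.44 on the RPA1 shRNA arrays, against 0.05, -0.05 and 0.01 on the control arrays. The 3 RPA1 shRNA arrays were thus all lower than the 3 HSF1 shRNA arrays, and those were all lower than the 3 control arrays. RPA1 shRNA replicate 2 was the lowest of the 9.

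Among the linker histones, which bind the DNA between nucleosomes, H1f1 and H1f5 fell in both knockdowns. H1f1 had log2 signals of 11.92, 11.80 and 11.69 on HSF1 shRNA arrays and 11.26, 11.07 and 11.19 on RPA1 shRNA arrays, against 12.51, 12.47 and 12.41 on control arrays. The 3 groups did not overlap, with RPA1 shRNA lowest and control highest. The H1f1 difference from control was -0.66 ± 0.07 under HSF1 shRNA (1.58-fold lower; limma adjusted p = 0.00045). Under RPA1 shRNA it was -1.29 ± 0.07 (2.44-fold lower; limma adjusted p = 4.71e-06), which was the largest fall among the 27 members. Directly, H1f1 was 1.55-fold lower under RPA1 shRNA than under HSF1 shRNA (limma adjusted p = 0.00041).

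H1f5 had log2 signals of 11.96, 11.91 and 11.88 on HSF1 shRNA arrays and 11.30, 10.97 and 11.34 on RPA1 shRNA arrays, against 12.47, 12.22 and 12.24 on control arrays. Again the 3 groups were apart, and control replicate 1 stood above the other control arrays. The difference from control was -0.39 ± 0.10 under HSF1 shRNA (limma adjusted p = 0.0282). This call was lost when any 1 of the 3 HSF1 shRNA or 3 control arrays was left out. Under RPA1 shRNA the difference was -1.10 ± 0.10 (2.15-fold lower; limma adjusted p = 5.68e-05), and directly RPA1 shRNA was below HSF1 shRNA by -0.71 ± 0.10 (limma adjusted p = 0.00124). The other linker members did not pass in either comparison with control. H1f2, another somatic form, had differences of 0.21 ± 0.06 under HSF1 shRNA (limma adjusted p = 0.0526) and 0.02 ± 0.06 under RPA1 shRNA. H1f3 had -0.18 and -0.34 with a wide SE of 0.22, and the testis form H1f6 had 0.15 and 0.22. The H1 type therefore held members on either side of 0, with 2 of 5 lower in each comparison with control. The share of all genes lower was 6.21% under HSF1 shRNA and 14.7% under RPA1 shRNA.

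H2A and H2B pair as a dimer within the nucleosome. Of the 4 H2A members, 1 fell under HSF1 shRNA (6.21% of all genes lower) and 3 under RPA1 shRNA (14.7% of all genes lower). H2ac4 was dim, with log2 signals of 7.88, 7.61 and 7.50 on HSF1 shRNA arrays and 7.09, 6.92 and 7.43 on RPA1 shRNA arrays, against 8.00, 8.27 and 8.23 on control arrays. All control arrays were above all knockdown arrays, but HSF1 shRNA replicate 1 came close to control replicate 1. The difference was -0.51 ± 0.14 under HSF1 shRNA (limma adjusted p = 0.0361), a call that was lost without control replicate 2 or 3, HSF1 shRNA replicate 2 or 3, or RPA1 shRNA replicate 1 (limma adjusted p of 0.0528 to 0.131). It was -1.02 ± 0.14 under RPA1 shRNA (2.03-fold lower; limma adjusted p = 0.000525). H2ac15 fell under RPA1 shRNA, by 0.20 (limma adjusted p = 0.00975). Under HSF1 shRNA its difference was -0.10 (limma adjusted p = 0.215), and the direct difference of RPA1 from HSF1 shRNA was -0.10 and did not pass either (limma adjusted p = 0.148). The testis form H2ac1 had -0.08 in both comparisons and did not pass.

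H2ac8 and H2bc8 start from opposite strands of 1 shared promoter stretch, and their differences from control were unlike under RPA1 shRNA. H2ac8 was dim, with log2 signals of 6.16, 6.14 and 6.27 on RPA1 shRNA arrays and 6.96, 6.99 and 6.64 on control arrays. On their highest arrays the blood markers Ptprc and Adgre1 reached 6.18 and 6.24, and whether H2ac8 is above background was not tested. H2ac8 differed from control by -0.67 ± 0.09 under RPA1 shRNA (limma adjusted p = 0.000549) and by -0.31 ± 0.09 under HSF1 shRNA (limma adjusted p = 0.0531). H2bc8 differed from control by 0.00 under RPA1 shRNA (limma adjusted p = 0.997) and by -0.17 ± 0.09 under HSF1 shRNA (limma adjusted p = 0.284). The difference between these neighbours was not tested. The other divergent pair with a shared window, H2ac1 and H2bc1, passed for neither gene in either comparison with control.

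H2B was the type with a member that rose. H2bc4 had log2 signals of 10.16, 10.19 and 10.27 on HSF1 shRNA arrays and 10.75, 11.10 and 10.48 on RPA1 shRNA arrays, against 8.81, 9.09 and 9.06 on control arrays. All knockdown arrays were above all control arrays, and the RPA1 shRNA arrays were above the HSF1 shRNA arrays. The rise was 1.22 ± 0.14 under HSF1 shRNA (2.33-fold; limma adjusted p = 0.00055) and 1.79 ± 0.14 under RPA1 shRNA (3.46-fold; limma adjusted p = 2.29e-05). Directly, RPA1 shRNA was 1.48-fold above HSF1 shRNA (limma adjusted p = 0.0146), and this call was lost without HSF1 shRNA replicate 1 (limma adjusted p = 0.0542). H2bc4 is among the 3 measured members of a list of 5 genes with polyadenylated forms outside S phase in human cells, and the other two did not pass in either comparison with control. H2bc21 had 0.26 ± 0.14 under HSF1 shRNA and 0.12 ± 0.14 under RPA1 shRNA. This list was made with the rise of H2bc4 already known. The other 2 genes of the 5, H2ac6 and H2bc12, had no probe set of their own. They were listed only in shared probe sets that also list a symbol outside the name form.

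The H2B members that fell did so by less than H1f1. H2bc18, from the chromosome 3 cluster, had log2 signals of 10.17, 10.17 and 10.06 on HSF1 shRNA arrays and 10.16, 10.08 and 10.17 on RPA1 shRNA arrays, against 10.31, 10.29 and 10.42 on control arrays. Both knockdown groups lay below control and overlapped each other. The difference was -0.21 ± 0.06 under HSF1 shRNA (limma adjusted p = 0.037), which did not pass when any 1 control or HSF1 shRNA array, or RPA1 shRNA replicate 1, was left out. It was -0.20 ± 0.06 under RPA1 shRNA (limma adjusted p = 0.0247), which did not pass without control replicate 1 or 3 or RPA1 shRNA replicate 1 or 2, and 0.01 ± 0.06 directly between RPA1 and HSF1 shRNA.

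H2bc3 had log2 signals of 11.98, 11.94 and 11.91 on HSF1 shRNA arrays and 11.67, 11.27 and 11.71 on RPA1 shRNA arrays, against 12.52, 12.09 and 12.47 on control arrays. Control replicate 2 was low among the controls but still above all knockdown arrays. H2bc3 fell under RPA1 shRNA by 0.81 on the log2 scale, 1.75-fold (limma adjusted p = 0.00146), the deepest fall of an H2B member there. Under HSF1 shRNA its difference was -0.42 ± 0.13 (limma adjusted p = 0.0641), which did not pass. H2bc14 and H2bc9 also fell under RPA1 shRNA, by 0.48 and 0.37 (limma adjusted p = 0.000482 and 0.012). H2bc1, H2bc8, H2bc21 and H2bc22 did not pass in either comparison with control.

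**Figure D2:**
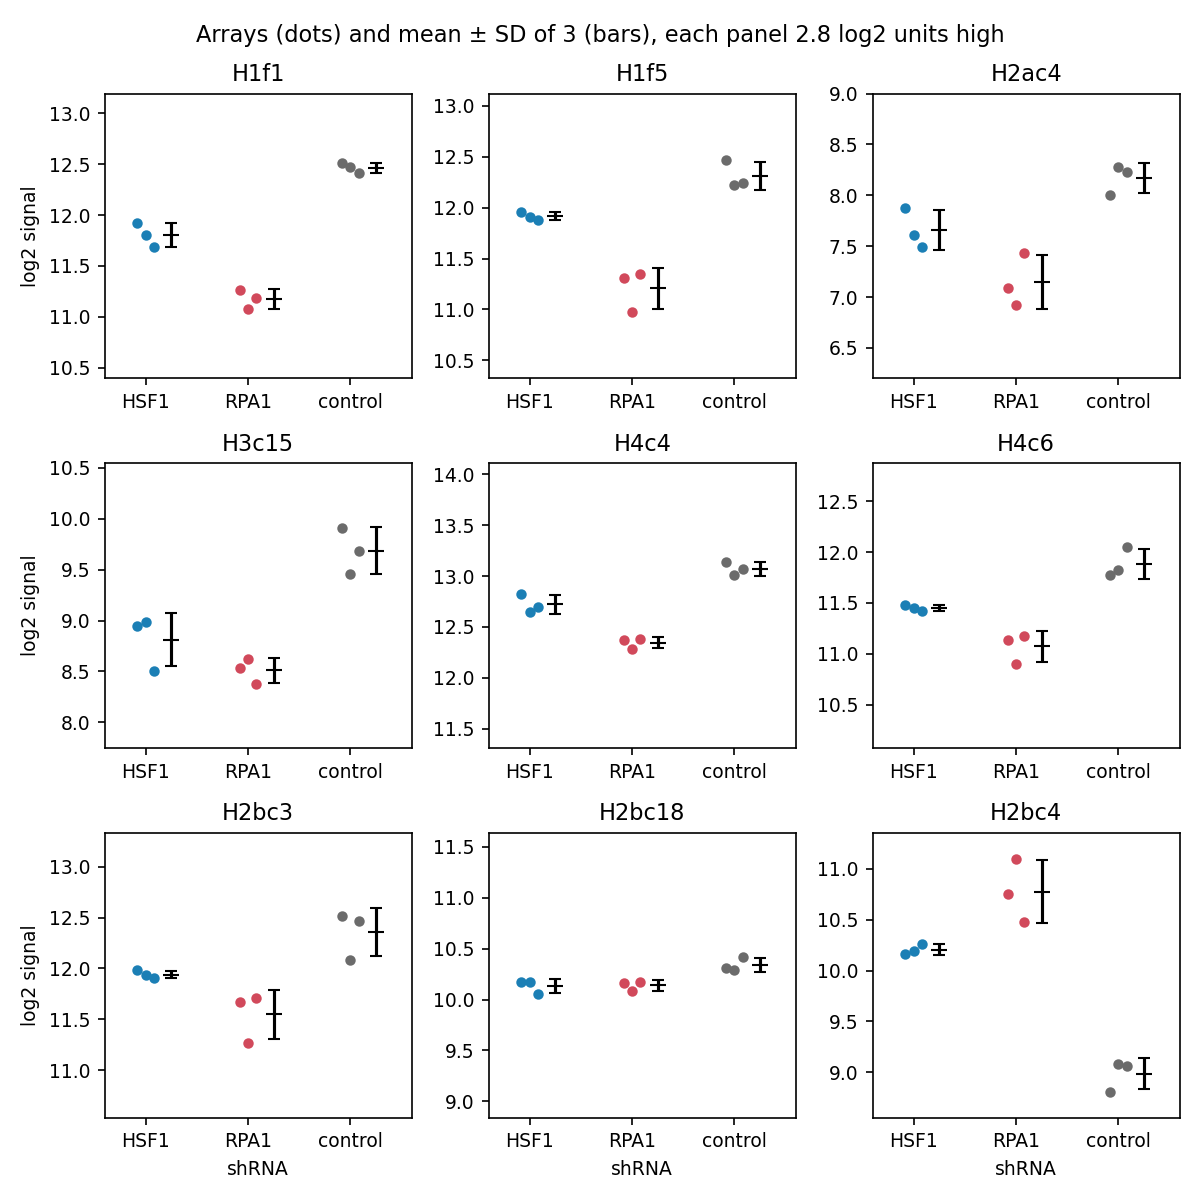
Log2 signal (y axis, the same span in each panel but not the same start) of 9 histone genes on each array (points) with the mean ± SD of 3 arrays (bars), for HSF1 shRNA, RPA1 shRNA and control from left to right. H2bc4 has its knockdown arrays above its control arrays, and the other 8 genes have their control arrays on top.

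H3 and H4 form the tetramer at the core of the nucleosome. The H3 member with the largest difference was H3c15 of the chromosome 3 cluster. Its log2 signals were 8.95, 8.98 and 8.51 on HSF1 shRNA arrays and 8.54, 8.62 and 8.38 on RPA1 shRNA arrays, against 9.91, 9.45 and 9.69 on control arrays. Both knockdown groups were below control, and they overlapped each other. The difference was -0.87 ± 0.14 under HSF1 shRNA (1.83-fold lower; limma adjusted p = 0.00391), the largest fall of a member in that comparison. It was -1.17 ± 0.14 under RPA1 shRNA (2.25-fold lower; limma adjusted p = 0.000294), and -0.30 ± 0.14 directly (limma adjusted p = 0.172). H3c4 did not pass in any contrast. H3c7 had the lowest signals of all 27 members, with 4.99, 4.97 and 5.22 on HSF1 shRNA arrays and 4.82, 4.87 and 4.52 on RPA1 shRNA arrays, against 5.11, 5.40 and 5.47 on control arrays. The RPA1 shRNA arrays lay below the others, and the HSF1 shRNA arrays overlapped the control arrays. The RPA1 shRNA difference was -0.59 ± 0.12 (limma adjusted p = 0.00482) and counts among the 17, but whether so dim a row is above background was not tested.

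H4 was the type that moved as a whole, with all 6 members lower in both comparisons with control and in the direct contrast. Of all genes, 6.21% were lower under HSF1 shRNA, 14.7% under RPA1 shRNA and 14.7% in the direct contrast. The HSF1 shRNA calls were 4 of 6 without control replicate 1 or 2 or HSF1 shRNA replicate 2 or 3, and the direct calls were 3 of 6 without RPA1 shRNA replicate 1. The RPA1 shRNA calls against control were 6 of 6 whichever array was left out. The range of the H4 differences was -0.43 to -0.29 under HSF1 shRNA, -0.81 to -0.57 under RPA1 shRNA and -0.41 to -0.25 directly between RPA1 and HSF1 shRNA. H4c4 had log2 signals of 12.83, 12.64 and 12.70 on HSF1 shRNA arrays and 12.37, 12.28 and 12.38 on RPA1 shRNA arrays, against 13.14, 13.01 and 13.07 on control arrays. The 3 groups did not overlap. H4c4 differed from control by -0.35 ± 0.06 under HSF1 shRNA (limma adjusted p = 0.00546) and by -0.72 ± 0.06 under RPA1 shRNA (limma adjusted p = 3.79e-05).

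H4c6 had log2 signals of 11.48, 11.45 and 11.42 on HSF1 shRNA arrays and 11.14, 10.90 and 11.18 on RPA1 shRNA arrays, against 11.77, 11.82 and 12.05 on control arrays. These groups too were apart in the same order. H4c6 had the largest H4 falls, -0.43 ± 0.09 under HSF1 shRNA (limma adjusted p = 0.0104) and -0.81 ± 0.09 under RPA1 shRNA (limma adjusted p = 0.000146). H4c3, H4c8, H4c9 and H4c14 had differences of -0.36 to -0.29 under HSF1 shRNA and -0.77 to -0.57 under RPA1 shRNA. Members of 1 type share most of their coding sequence, so signal may be shared between them where probes do not tell them apart.

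The shared probe sets gave another view of the H3 and H4 families, in a limma fit over all 23410 rows with a symbol. This view is not independent of the members, because the shared rows also list H3c4, H3c7, H3c15, H4c3, H4c4, H4c6, H4c8 and H4c9. Of the 17, 10 listed 12 H3 symbols each, 6 listed H4 symbols and 1 listed H2bc6 with H1f4. One pair of H4 rows held the same value on every array, which left 16 distinct sets of values. These are not 16 independent units. The H3 rows all listed the same 12 symbols, and the H4 rows, except that of H4c17 and H4c11 alone, the same 11. Counts of rows are therefore mostly repeated readings of the same pools of genes. Under HSF1 shRNA 7 of 17 fell and 0 rose (background 6.54% of listed rows lower and 9.62% higher): all 6 of H4, with differences of -0.41 to -0.20, and H2bc6 with H1f4, with -0.43. None of the 10 H3 rows passed, with differences of -0.14 to -0.11. The count of 7 was 4 without control replicate 1 or 3 or HSF1 shRNA replicate 2, and 17 with array weights or with a trended, robust variance prior.

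Under RPA1 shRNA 17 of 17 shared rows fell and 0 rose (background 14.7% of listed rows lower and 15.1% higher). Most of these rows repeat the same symbols, so the 17 are not 17 separate results. H3 rows had differences of -0.30 to -0.26, H4 rows of -0.99 to -0.45, and H2bc6 with H1f4 of -0.93. Directly, RPA1 shRNA was lower than HSF1 shRNA for 11 rows and higher for 0 (background 13.7% lower and 9.18% higher): 6 of H4, 4 of H3 and H2bc6 with H1f4. That count was 7 when any array other than RPA1 shRNA replicate 3 was left out. The shared H3 rows were among the brightest signals, at 14.14 to 14.45 on HSF1 shRNA arrays, 13.99 to 14.31 on RPA1 shRNA arrays and 14.32 to 14.56 on control arrays. For comparison, the 99th percentile over the genes tested was 13.01 to 13.07 per array and the brightest gene 14.72 to 14.80. Whether brightness bears on the size of these differences was not tested. A further 9 rows listed H2B, H2A or H3 symbols together with a symbol outside the pattern. Of these 0 fell under HSF1 shRNA and 7 under RPA1 shRNA (6.54% and 14.7% of listed rows lower). Their differences were small, -0.12 to -0.06 under HSF1 shRNA and -0.29 to -0.09 under RPA1 shRNA. These 9 rows held 8 distinct sets of values and mostly repeat the same symbols, so they are not separate results.

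**Figure D3:**
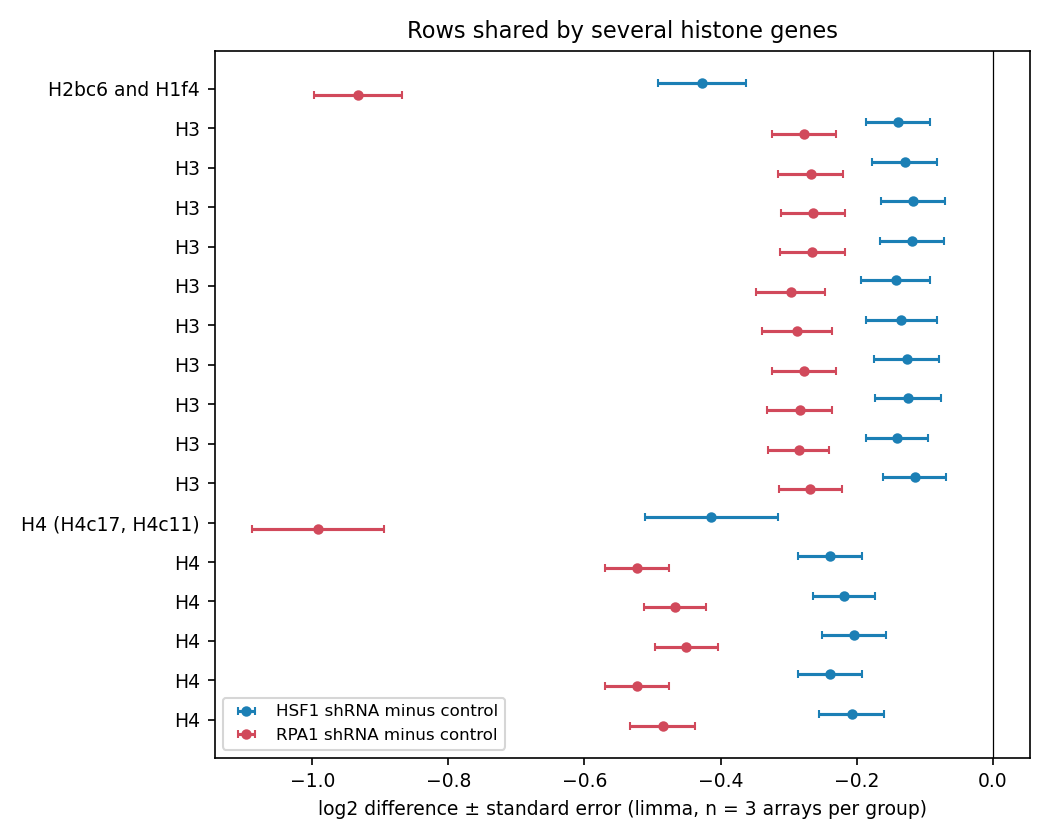
Log2 difference from control ± limma's standard error (x axis) of the 17 probe sets that list several clustered histone symbols (rows), in blue for HSF1 shRNA and red for RPA1 shRNA. All points lie below 0, and the H4 points lie further below 0 than the H3 points under both hairpins.

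Both clusters held members that fell. On chromosome 13, 8 of 23 members fell and 1 rose under HSF1 shRNA, and 14 fell and 1 rose under RPA1 shRNA. The shares of all genes were 6.21% lower and 9.89% higher under HSF1 shRNA, and 14.7% lower and 15.4% higher under RPA1 shRNA. On chromosome 3, 3 of 4 members fell in each comparison with control, and the H2bc18 calls among these were lost in several leave-outs. The median difference under RPA1 shRNA was -0.48 on chromosome 13 and -0.40 on chromosome 3. Members that fell stood next to members that did not pass along chromosome 13, as H4c3 (-0.77) and H1f2 (0.02) show under RPA1 shRNA.

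**Figure D4:**
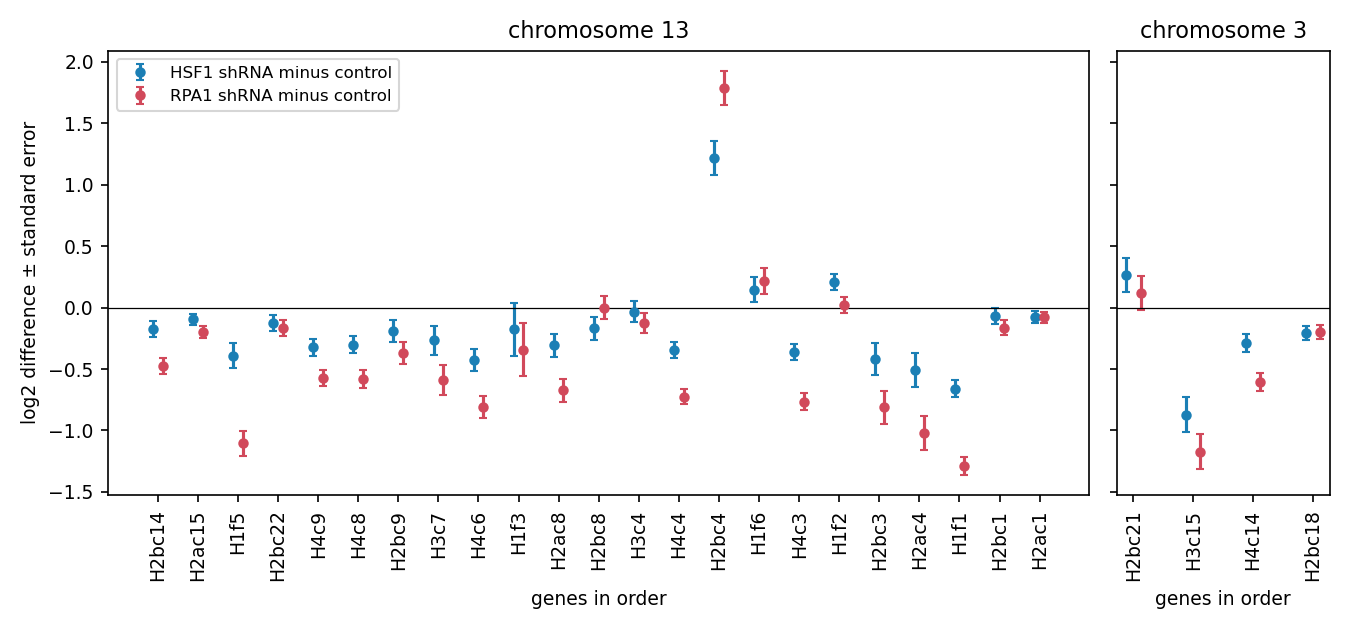
Log2 difference from control ± limma's standard error (y axis) of the histone genes in their order along chromosomes 13 and 3 (x axis, evenly spaced), in blue for HSF1 shRNA and red for RPA1 shRNA. H2bc4 stands at 1.22 and 1.79 between neighbours that lie near or below 0.

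The genes that act on histone mRNA were set beside the members. Of 14 genes for transcription and 3′ processing of histone mRNA, 3 rose and 0 fell under HSF1 shRNA, 21.4% in either direction against 16.1% of all genes. Those were Ncbp1 (0.31), which encodes the large cap-binding subunit, Cpsf2 (0.29), a partner of the nuclease Cpsf3, and Srrt (0.23), which encodes the cap-complex partner ARS2. Under RPA1 shRNA 3 rose, Srrt (0.23), Cpsf2 (0.21) and Ncbp1 (0.20), and 2 fell, the U7 protein gene Lsm11 (-0.45) and the nuclease gene Cpsf3 (-0.23). That was 35.7% in either direction, near the 30.1% of all genes, and the direct contrast had 21.4% against 24.4% of all genes. Directly, 3 were lower under RPA1 than under HSF1 shRNA, Lsm11 (-0.43), Cpsf3 (-0.29) and Nelfe (-0.17). Slbp had differences of 0.12 under HSF1 shRNA (limma adjusted p = 0.203) and 0.15 under RPA1 shRNA (limma adjusted p = 0.0721), and Npat did not pass in either. The 3 that rose under RPA1 shRNA were 1 without control replicate 1 or 2 and 0 without control replicate 3. The 2 that fell there were 1 when any array other than HSF1 shRNA replicate 2 or RPA1 shRNA replicate 3 was left out. The 3 of the direct contrast were 1 without HSF1 shRNA replicate 1 or 3 or RPA1 shRNA replicate 1 or 2.

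Histone genes outside the clustered name form, most of them variants that are made outside S phase as well, also held members that fell. Of 10 measured, 4 fell and 0 rose under HSF1 shRNA (6.21% of all genes lower), and 6 fell and 1 rose under RPA1 shRNA (14.7% of all genes lower). H2az2, an H2A.Z gene, differed from control by -0.43 under HSF1 shRNA and -1.03 under RPA1 shRNA. H1f10, a linker variant, differed by -0.44 and -1.01 in the same order, and Macroh2a2 by -0.39 and -0.51. H4f16, an H4 gene that was formerly named Hist4h4 and is not a variant, had -0.30 and -0.66. H2az1 (-0.22) and H3f3a (-0.29) fell under RPA1 shRNA. The 1 that rose there was H2aj, by 0.19 with a limma adjusted p of 0.0496, and none rose when any array other than RPA1 shRNA replicate 3 was left out.

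S phase genes had a median nearer to 0 than the histone members in both comparisons with control. Of 29 measured replication genes, 9 fell and 0 rose under HSF1 shRNA (6.21% of all genes lower), with a median of -0.16. The deepest were the polymerase delta and epsilon genes Pold1 (-0.50) and Pole (-0.39) and the ligase gene Lig1 (-0.43). Under RPA1 shRNA 7 fell and 3 rose, with a median of -0.11 beside -0.48 for the histone members. That was 34.5% in either direction, near the 30.1% of all genes, with 14.7% of all genes lower and 15.4% higher. Gins1 (-0.45), Pold1 (-0.45) and Gins2 (-0.41) had the deepest falls, and the ribonucleotide reductase gene Rrm2 (0.34), Orc1 (0.33) and Fen1 (0.25) rose. Directly, 6 replication genes were higher and 2 lower under RPA1 shRNA than under HSF1 shRNA (9.71% of all genes higher and 14.7% lower), with a median of 0.11, where the histone members had a median of -0.25. These replication gene counts moved with single arrays: the 9 were 16 without RPA1 shRNA replicate 3, and the 7 were 4 without control replicate 1 or 2. The 3 that rose under RPA1 shRNA were 7 without RPA1 shRNA replicate 3. The 6 of the direct contrast were 13 without RPA1 shRNA replicate 3, 2 without RPA1 shRNA replicate 1, and 1 without RPA1 shRNA replicate 2 or HSF1 shRNA replicate 2 or 3.

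Among 13 measured genes of S phase entry and arrest, 3 rose and 1 fell under HSF1 shRNA, and 7 rose and 3 fell under RPA1 shRNA. In either direction 30.8% passed under HSF1 shRNA, against 16.1% of all genes, and 76.9% under RPA1 shRNA, against 30.1%. The 3 that rose under HSF1 shRNA were 1 without control replicate 3. Ccne1, the cyclin E1 gene that promotes S phase entry, rose by 0.37 under HSF1 shRNA and 1.28 under RPA1 shRNA. Mdm2, a target and inhibitor of p53, rose by 0.45 under HSF1 shRNA and 1.73 under RPA1 shRNA. E2f1 (0.73) and Rb1 (0.75) rose under RPA1 shRNA, with replicate 3 nearer to control than the other arrays. E2f1 stood at 11.69, 11.86 and 11.01 on RPA1 shRNA arrays, and Rb1 at 11.46, 11.50 and 10.94. Cdkn1b, the gene for the CDK inhibitor p27, fell in both, with -0.76 under HSF1 shRNA and -0.62 under RPA1 shRNA. Cdkn2b (-0.76) and Cdkn2a (-0.31) fell under RPA1 shRNA only. Cdkn2b stood at 9.37, 9.38 and 10.25 on RPA1 shRNA arrays, so replicate 3 was apart there too. The lists were compared by counts and medians only, and no test of one list against another was made.

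**Figure D5:**
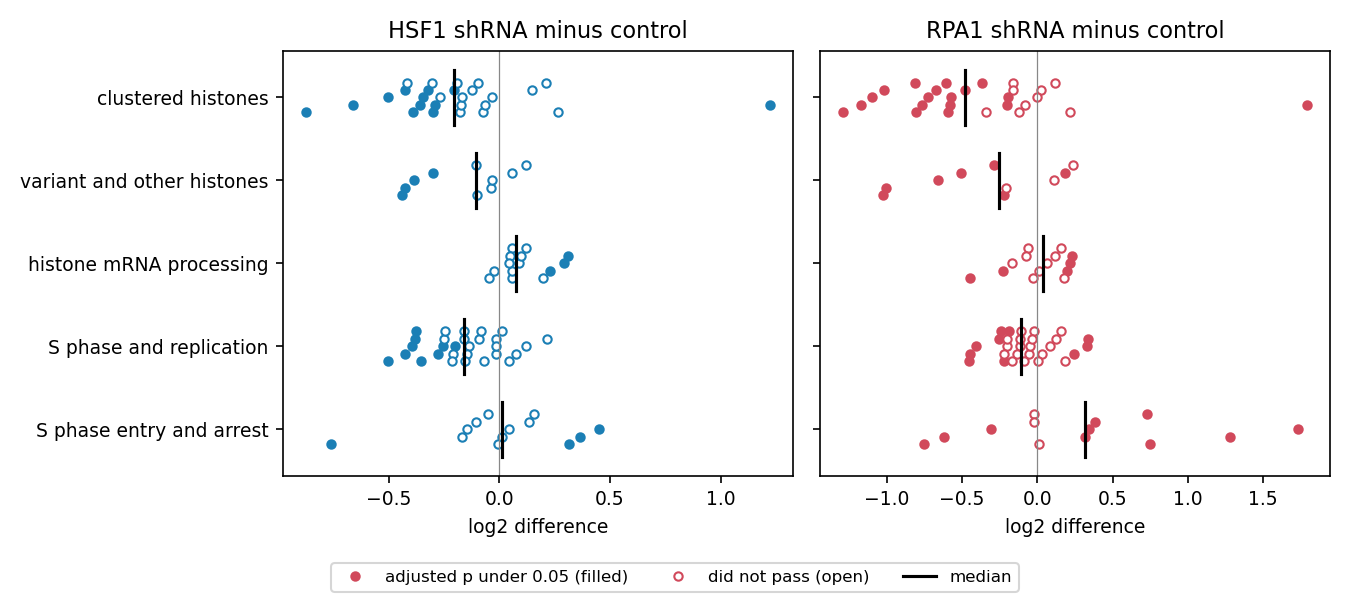
Log2 difference from control (x axis) of each measured gene of 5 lists (rows), for HSF1 shRNA (left) and RPA1 shRNA (right), with filled points at an adjusted p under 0.05 and the list median as a black bar. Under RPA1 shRNA the clustered histones have a median of -0.48 and the S phase and replication genes a median of -0.11.

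Markers of other cell types were read as well, and their part in the results was not tested. The mean level over 4 macrophage or other blood markers was 7.06 on HSF1 shRNA arrays, 7.43 to 7.51 on RPA1 shRNA arrays and 6.77 to 6.89 on control arrays. Of these 4, Csf1r rose in both comparisons (0.27 and 0.35 for HSF1 and RPA1 shRNA) and Cd68 under RPA1 shRNA by 2.06, while the defining markers Ptprc and Adgre1 did not pass in either. Of 5 epithelial markers 1, Krt14, rose in each comparison, and of 4 endothelial markers 1, Pecam1, rose in each. Among all genes, 9.89% rose under HSF1 shRNA and 15.4% under RPA1 shRNA. The mean level was 8.04 to 8.07, 7.85 to 8.01 and 7.81 to 7.83 for the epithelial list, and 7.12 to 7.19, 7.02 to 7.23 and 6.99 to 7.07 for the endothelial list, on HSF1 shRNA, RPA1 shRNA and control arrays in that order.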

How the data were processed

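From each of 9 samples, 200 ng of total RNA was hybridised to an Affymetrix Mouse Gene 1.0 ST array, labelled with a whole-transcript kit, per the labels' protocols. The deposited values were 1 signal per probe set and array, made by the authors with RMA in Partek 6.5, per the submitters' processing notes. Their scale is not stated there. Their range was that of log2 signals, so the deposited values were taken as log2 and used without further scaling. Of 35557 rows, 21789 had 1 gene symbol in the platform annotation, 1621 had several and 12147 were not listed. A gene's row with the highest mean over 9 arrays stood for it, which left 19938 genes, and each member gene had 1 row.

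R 4.3.3 and limma 3.58.1 fitted 1 mean per group to all 9 arrays (6 residual and 3.51 prior degrees of freedom), with 3 contrasts and Benjamini-Hochberg adjustment over all genes. Differences are given ± the standard error from limma. Rows with several symbols were tested in a fit over 23410 listed rows. No filter on dim genes was used. The procedure was first tested on simulated data. Promoter windows came from a RefSeq table (GRCm38.p6) and were searched for motifs on both strands.

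Genes given array by array were the markers H1f1, H1f5, H2bc4 and H4c4 and, per histone type, the called member with the largest rise and fall in each comparison with control. The members and lists were chosen with earlier results of these data known. The alternatives were quantile, median and cyclic loess scaling, genes above the median gene only, other choices of row, only the 6 arrays compared, a trended and robust variance prior, array weights, the replicate number as a block, and leaving out each array.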

Additional observations from a re-analysis of the deposited data

How the results depend on the processing

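Under RPA1 shRNA against control, 16 to 18 members were lower when any 1 array was left out, 14 to 20 under the other alternatives, and all 17 shared rows were lower in each. Under HSF1 shRNA the lower members numbered 6 to 13 and the lower shared rows 4 to 8 over the leave-outs. In the direct contrast of RPA1 with HSF1 shRNA they numbered 6 to 14 and 7 to 16. With a trended, robust prior or array weights, 17 shared rows were lower under HSF1 shRNA, and the cause was not tested. In the direct contrast the 11 lower shared rows were 7 with quantile scaling, median centring, only 6 arrays or the replicate block, and 17 with the trended, robust prior or with rows above the median gene only.

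Higher members numbered 2 in place of 1 under HSF1 shRNA with genes above the median gene (fewer genes tested), only 6 arrays, the trended, robust prior or array weights, and 1 to 2 over the leave-outs; the added gene was H1f2. With array weights they numbered 2 in each other contrast. In the direct contrast they numbered 0 to 1 over the leave-outs. The direct H2bc18 difference, 0.01, ranged from -0.033 to 0.035 over the leave-outs, and was -0.033 without HSF1 shRNA replicate 3, -0.0069 without RPA1 shRNA replicate 1 and -0.012 without RPA1 shRNA replicate 3.

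Same-numbered arrays did not deviate together (correlations of -0.159 to 0.0933), so the numbers were not taken as pairs. With the replicate block, 9 members were lower under HSF1 shRNA: H2ac4 (limma adjusted p = 0.0647), H2bc18 (0.0726) and H4c14 lost the call and H2bc3 gained it. Of 510 values of the 9 genes given array by array over 19 alternatives and 3 contrasts, 461 kept their direction and side of the threshold, 16 newly passed, 30 lost their call and 3 changed sign. Over all alternatives the 9 replication genes lower under HSF1 shRNA were 7 to 17, the 7 lower under RPA1 shRNA 4 to 14, and the 6 higher in the direct contrast 1 to 16. The 3 processing genes higher under RPA1 shRNA were 0 to 6. With 19 of 27 members above the median gene, the rest were dim, which limits what their signals show.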
